A study of Arabidopsis thaliana with 18 samples.

Results

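The miR172 family is the group of small RNAs that target mRNAs of AP2-like transcription factors. Its members here were all mature sequences that the deposited abundance table lists under the family line mir172, 7 of 476 distinct miRNA sequences, with the 2 sequencing runs of each library added together. None of the 7 is listed under another of the 101 families. They were counted in 18 small RNA libraries from rosette leaves of wild-type Arabidopsis thaliana, accession Col-0, grown for 5 to 6 weeks in short days of 8 h light at 22 °C. Plants received a spore spray of Alternaria brassicicola strain MUCL 20297, a necrotrophic leaf fungus (1000000 spores in each ml, with 0.01% of the wetting agent Silwet), were mock treated, or were left untreated. Leaves were taken 3 days after inoculation, and neither the composition of the mock spray nor a harvest day for mock and untreated plants is given in the labels. Each treatment had 3 biological replicates. Small RNA bound to ARGONAUTE1 (AGO1), recovered with an AGO1 antibody, and total small RNA were each sequenced in 3 libraries per treatment, which gives 6 groups of 3. The labels do not say whether AGO1 and total libraries of the same number came from the same plants. The library types were prepared by different protocols, so binding to AGO1 and library preparation cannot be told apart.

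A miRNA is cut from a hairpin precursor as a duplex. One strand, the guide, is loaded into an ARGONAUTE protein and pairs with target mRNAs, while the passenger strand is usually degraded. AGO1, the main miRNA effector of plants, prefers guides that begin with U, AGO2 prefers A, and AGO7 binds miR390. The miR172 guide, from the 3p arm of its hairpins, represses APETALA2 (AP2), TARGET OF EAT 1, 2 and 3 (TOE1, TOE2, TOE3), SCHLAFMUTZE (SMZ) and SCHNARCHZAPFEN (SNZ). In leaves these factors delay flowering. miR172 rises as the shoot ages, downstream of miR156 and miR157, whose targets, the SPL factors, activate miR172 genes.

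The 7 sequences fall into 3p guides and 5p passengers. They are shown with the seed, bases 2 to 8, in capitals and with T for U, because the forms differ in the first base, and the 5p forms carry another seed than the guide.
miR172 3p, 21 nt (most read): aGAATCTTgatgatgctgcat
miR172 3p, 22 nt: gAGAATCTtgatgatgctgcat
miR172 3p of MIR172e, 21 nt: gGAATCTTgatgatgctgcat
miR172 5p, 20 nt: gCAGCACCattaagattcac
miR172 5p, 21 nt: gCAGCACCattaagattcaca
miR172 5p, 19 nt: gCAGCACCattaagattca
miR172 5p, 19 nt, starting with C: cAGCACCAttaagattcac

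Each sequence was matched exactly to the RefSeq copy of the Arabidopsis assembly (TAIR10.1). For 461 of 476 sequences the number of matches equalled that in the deposited table, whose build is TAIR10. The most read 3p sequence lies in MIR172a (AT2G28056, chr2:11942918-11942938, minus strand) and in MIR172b (AT5G04275, chr5:1188211-1188231, minus strand). The 20 nt and 21 nt 5p forms lie in MIR172b (the shorter at chr5:1188278-1188297) and in MIR172e (AT5G59505, chr5:23988484-23988503, plus strand). The 2 forms start at the same base and differ by 1 base at the 3′ end. The MIR172e guide differs from the most read 3p sequence by A1G, with positions counted from 1 at the 5′ end, so it begins with G. None of the 7 sequences lies in MIR172c or MIR172d, whose annotated guide differs from the most read sequence by T21G. The hairpins that hold both strands are shown with the listed sequences in capitals, 5p arm first.
MIR172b hairpin, chr5:1188207-1188301, minus strand: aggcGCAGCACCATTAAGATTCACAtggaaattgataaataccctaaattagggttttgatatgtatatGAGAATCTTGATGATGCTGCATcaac
MIR172e hairpin, chr5:23988472-23988596, plus strand: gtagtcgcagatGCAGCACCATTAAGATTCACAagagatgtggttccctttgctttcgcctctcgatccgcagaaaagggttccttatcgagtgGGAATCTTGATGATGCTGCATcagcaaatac

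The sites in the 6 known target mRNAs were located with the most read 3p sequence in the same assembly. They are printed in mRNA sense to show how closely the guide pairs with each mRNA, with mismatches to its perfect complement in capitals. All 6 sites share 1 mismatch, the G in capitals, which lies opposite a U of the guide. G:U pairs are counted as mismatches here.
TOE2 (AT5G60120), chr5:24210889-24210909, coding exon 9 of 10: atgcagcatcatcaGgattct
AP2 (AT4G36920), chr4:17403019-17403039, coding exon 11 of 11: CtgcagcatcatcaGgattct
TOE1 (AT2G28550), chr2:12226233-12226253, coding exon 9 of 9: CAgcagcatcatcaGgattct
TOE3 (AT5G67180), chr5:26802175-26802195, coding exon 9 of 9: TGgcagcatcatcaGgattct
SMZ (AT3G54990), chr3:20373774-20373794, coding exon 7 of 7: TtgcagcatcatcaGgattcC
SNZ (AT2G39250), chr2:16389066-16389086, exon 6 of 6, 3′ UTR in the transcript used: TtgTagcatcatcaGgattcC
Mismatches numbered 1 in TOE2, 2 in AP2, 3 in TOE1, TOE3 and SMZ and 4 in SNZ. No mRNA was measured in these libraries, so the level of the targets was not analysed here, and the leaf label could not be set against leaf marker genes.

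AGO1 libraries held 10835770 to 20317660 miRNA reads and total libraries 753927 to 3034481. miRNAs made up 77.8% to 83.4% of genome-matched reads in AGO1 libraries and 2.53% to 13.2% in total libraries. In total libraries that share was 7.76% to 11.7% with Alternaria, 5.33% to 13.2% with mock treatment and 2.53% to 2.76% without treatment, so the groups differed in how much of a library was miRNA. The lowest number listed for any sequence in a run is 15. A sequence listed at 0 can therefore have had up to 14 reads in a run and 28 in a library. In whole leaves, fewer cells that make a miRNA and less of it per cell cannot be told apart.

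The family was among the moderately abundant miRNAs of total small RNA and near the bottom of the AGO1-bound list. It took 0.400% of the miRNA reads of Alternaria total libraries, 0.307% of mock and 0.181% of untreated ones. By mean level it ranked 19 of 80 listed families with Alternaria, 21 of 80 with mock treatment and 27 of 73 without treatment. In AGO1 libraries its rank was 65 of 82, 63 of 79 and 66 of 80 in the same order of treatments.

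In total small RNA miR172 stood highest in Alternaria-treated leaves. Levels are given as counts per 1000000 miRNA reads (CPM), scaled by trimmed mean of M-values (TMM) factors within the 9 libraries of a type. The family had 4873, 4155 and 3622 CPM in the 3 Alternaria libraries, 2424, 3201 and 3039 CPM in the mock libraries and 1574, 2798 and 1531 CPM in the untreated libraries. The means were 4217 ± 628, 2888 ± 410 and 1967 ± 719 CPM (SD, n = 3 each), behind which stood 6746 to 11067, 3515 to 10145 and 1355 to 2697 reads. All Alternaria libraries lay above all mock and untreated libraries, while mock and untreated libraries overlapped through 1 high untreated library, replicate 2. With library totals alone Alternaria libraries also lay above mock ones, the lowest Alternaria library at 3680 CPM and the highest mock library at 3343 CPM. On the scales that follow, Alternaria and mock libraries overlapped. Scaled over all 18 libraries, Alternaria had 2923, 2871 and 2015 CPM and mock 1587, 2450 and 2249 CPM. Relative to genome-matched reads (reads per 1000000), Alternaria had 310.0, 414.8 and 428.8 and mock 135.4, 212.9 and 442.3.

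Against untreated leaves, the family rose with Alternaria by 1.15 ± 0.29 on the log2 scale (standard error; limma, adjusted p = 0.00951). Of 77 families tested, 12 were called higher (15.6%) and 7 lower (9.09%). The median family stood at 0.35, which leaves miR172 at 0.80 above the median. Against mock-treated leaves the change was 0.55 ± 0.29 with a median family at 0.31, and it did not pass the test (adjusted p = 0.320; 3.9% of families were called higher and 2.6% lower). Mock against untreated leaves gave 0.60 ± 0.29 with a median family at 0.21 (adjusted p = 0.270). In that comparison 0 of 77 families were called higher and 5.19% lower by limma, 0 were higher by limma-voom, and 14 families had an unadjusted p under 0.05. The comparisons share libraries, so their values are not independent of each other.

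The call against untreated leaves depended on single libraries and on scaling. It was lost without untreated replicate 1 (0.69, adjusted p = 0.133), without untreated replicate 3 (0.71, adjusted p = 0.131), with TMM factors computed before low families were removed (0.87, adjusted p = 0.0587; chosen after seeing the data), with no filter (0.87, adjusted p = 0.0664) and in a limma fit of all 18 libraries (0.97, adjusted p = 0.0664). Per genome-matched reads it was larger, 2.90 ± 0.55 (adjusted p = 2.97e-06), and so was the median family, at 1.80, with 56 families called higher and 3 lower. On that scale mock against untreated leaves also passed, at 2.20 (adjusted p = 0.000752), with the median family at 1.40. With TMM factors computed before the filter the split was 10 higher and 13 lower. In the authors' deposited tables the family stands at 1.04 for Alternaria over untreated (adjusted p = 0.0690), at 0.45 for Alternaria over mock (adjusted p = 0.802) and at -0.59 for untreated over mock (adjusted p = 0.857).

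**Figure D1:**
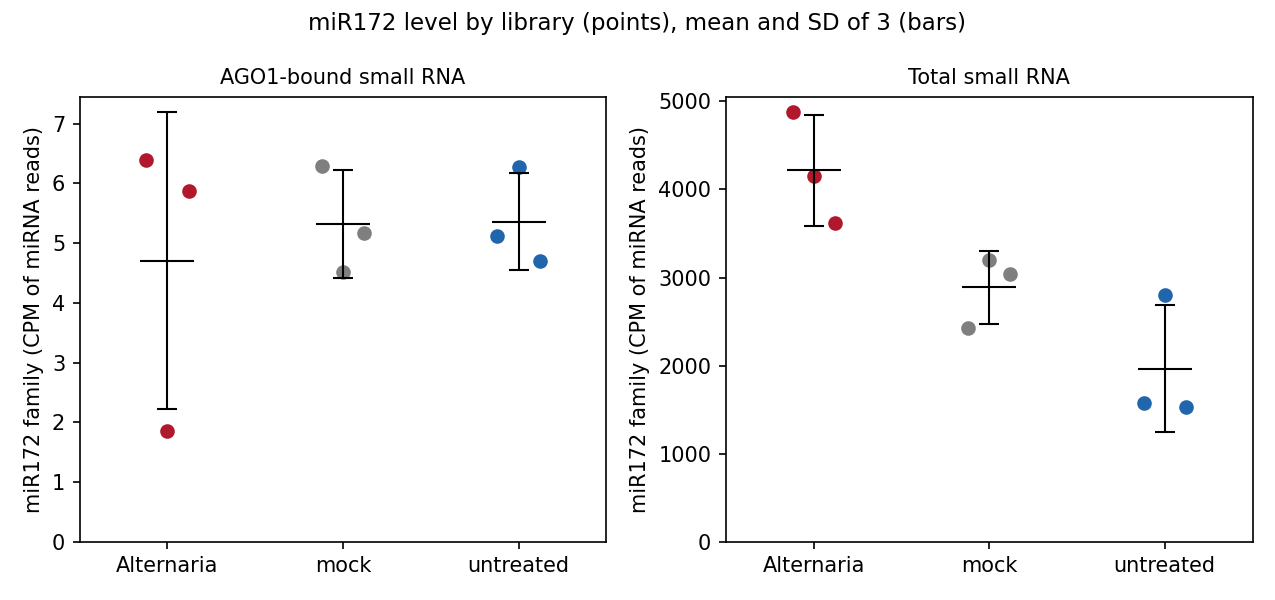
miR172 family level in each library (points, CPM of miRNA reads, scaled within each library type) with the mean and SD of 3 replicates, for AGO1-bound small RNA on the left and total small RNA on the right, on separate axes. The 3 Alternaria total libraries lie between 3622 and 4873 CPM, above all other total libraries, whereas AGO1 libraries lie between 1.86 and 6.38 CPM with no separation of treatments.

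**Figure D2:**
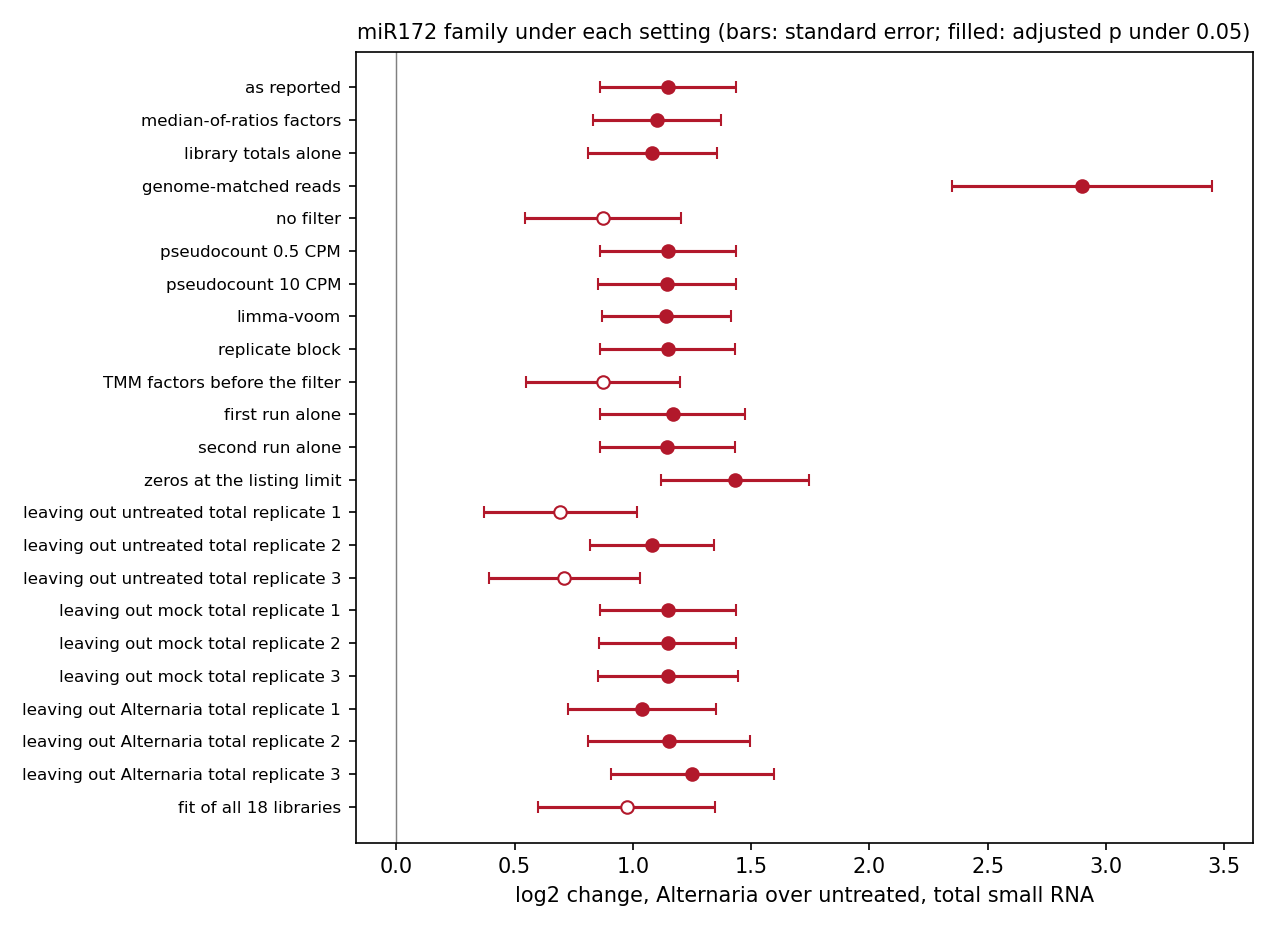
Log2 change of the family, Alternaria over untreated, in total small RNA under each alternative setting (points, with standard error as bars; filled points passed an adjusted p of 0.05). Every estimate is above 0, between 0.69 and 2.90, and the open points mark the settings under which the call was lost.

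Within the family, 3 sequences held nearly all reads of total small RNA. Pooled over the 9 total libraries the 20 nt 5p form took 33.9% of miR172 reads, the most read 3p sequence 33.7% and the 21 nt 5p form 32.1%. Single libraries were less even. The guide's share ran between 21.3% in Alternaria replicate 2 and 55.8% in untreated replicate 3, and that of the 20 nt form between 44.7% and 16.2% in the same libraries. The other 4 sequences had 16 to 64 reads in all and were each listed in 1 or 2 total libraries. They did not pass the filter on low values, so 3 of the 7 members were tested in total libraries. The 5p passenger strand thus had more reads than the guide in 8 of 9 total libraries, untreated replicate 3 being the exception.

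Both 5p forms rose with Alternaria against untreated leaves. The 20 nt form had 1526, 1856 and 1183 CPM with Alternaria, 704, 1038 and 964 CPM with mock treatment and 425, 1153 and 247 CPM without treatment. Its change against untreated leaves was 1.59 ± 0.45 (limma, adjusted p = 0.0260 over 296 sequences, of which 12.5% were called higher). Alternaria libraries lay above all others for this form on this scale and with library totals alone. The highest untreated library, replicate 2, was close to the lowest Alternaria library. Scaled over all 18 libraries, Alternaria replicate 3 had 658 CPM, below untreated replicate 2 at 691 and mock replicates 2 and 3 at 795 and 713 CPM. Per genome-matched reads Alternaria lay above untreated libraries and overlapped with mock replicate 3.

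The 21 nt 5p form had 2002, 1392 and 1086 CPM with Alternaria, 890, 1207 and 658 CPM with mock treatment and 641, 881 and 429 CPM without treatment. It changed by 1.21 ± 0.36 against untreated leaves (limma, adjusted p = 0.0306). Alternaria libraries again lay above the untreated ones and overlapped with the mock ones. Against mock leaves neither 5p form passed, at 0.75 for the 20 nt and 0.70 for the 21 nt form (limma, adjusted p = 0.418 and 0.319). Neither 5p form remained past the test without untreated replicate 1 or 3, without Alternaria replicate 1 or 2, with no filter or with TMM factors computed before the filter, and 1 of the 2 did without untreated replicate 2.

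The 3p guide had 1344, 885 and 1348 CPM with Alternaria, 830, 956 and 1387 CPM with mock treatment and 508, 764 and 854 CPM without treatment. Its change was 0.76 ± 0.32 against untreated leaves (limma, adjusted p = 0.112) and 0.18 ± 0.32 against mock leaves (adjusted p = 0.807), so it did not pass in either comparison. Against untreated leaves it did pass per genome-matched reads (2.47, adjusted p = 1.51e-05) and with zeros at the listing limit (1.11, adjusted p = 0.0332). The highest guide level of all 9 libraries was in a mock library, replicate 3, and the guide levels of Alternaria and mock libraries overlapped. The untreated ones lay below the Alternaria ones on this scale and per genome-matched reads. With library totals alone and scaled over all 18 libraries they overlapped. On the latter scale untreated replicate 3 had 689 CPM and Alternaria replicate 2 had 612 CPM.

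Summed by arm, the 5p arm stood at 1.38 ± 0.38 (limma, adjusted p = 0.0157 over 106 arm sums, of which 16% were called higher) and the 3p arm at 0.76 ± 0.33 (adjusted p = 0.106) for Alternaria over untreated. The 5p call was lost without untreated replicate 1, without untreated replicate 3, with no filter and with TMM factors computed before the filter, and it gave 1.12 (adjusted p = 0.0463) with factors computed from the arm sums themselves. A call in 1 arm and not in the other does not show that the arms differed. That difference was tested on the share of 5p reads within the family, which needs no scaling between libraries.

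**Figure D3:**
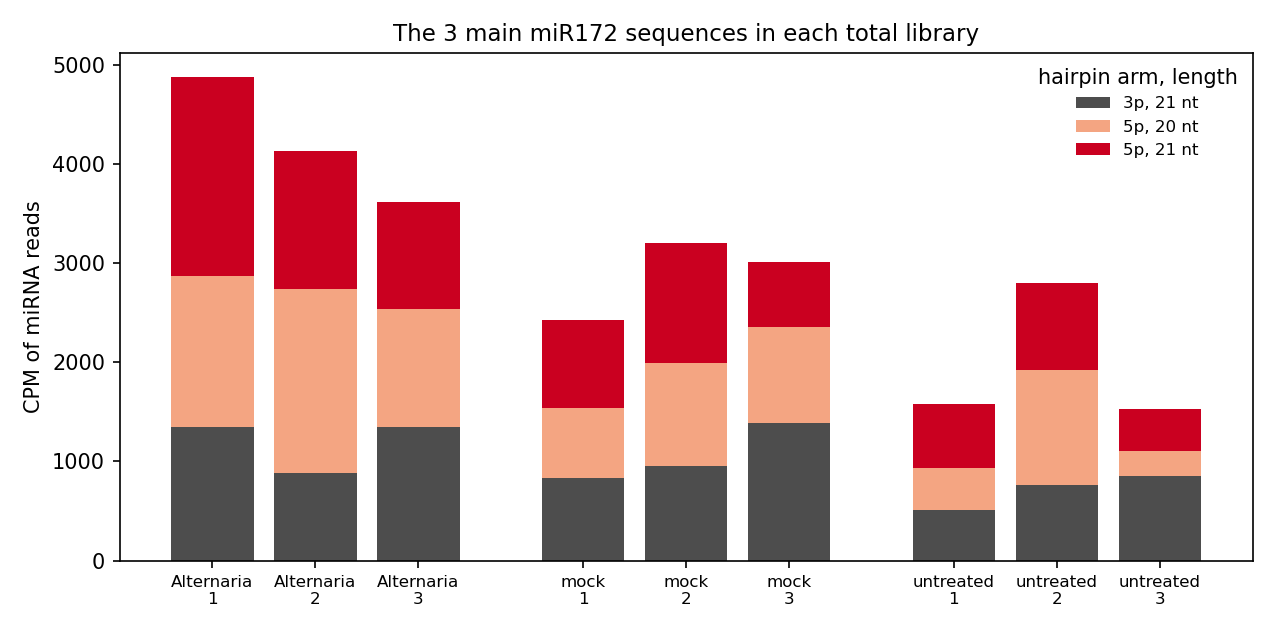
Level of the 3 main miR172 sequences in each total library (stacked bars, CPM of miRNA reads), grouped by treatment and numbered by replicate. The 2 forms of the 5p arm make up most of each bar except in untreated replicate 3.

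The 5p share was 72.4%, 78.5% and 62.6% in Alternaria total libraries, 65.8%, 70.1% and 53.5% in mock ones and 67.7%, 72.7% and 44.2% in untreated ones. The 95% Wilson intervals of these shares were 1.65 to 5.28 percentage points wide and cover counting error only. Group means were 71.2 ± 8.01%, 63.1 ± 8.60% and 61.6 ± 15.2% (SD, n = 3 each), and the groups overlapped. Alternaria differed from untreated leaves by 9.65 percentage points (exact two-sided permutation test, p = 0.5, adjusted over 3 comparisons p = 0.75) and from mock leaves by 8.05 points (exact p = 0.4, adjusted p = 0.75), where the smallest p that 3 against 3 libraries can give is 0.1. Mock differed from untreated leaves by 1.59 points (exact p = 0.9, adjusted p = 0.9). In each treatment the library numbered 3 had the lowest 5p share.

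The ends of the 5p strand varied between libraries more than between treatments. The 21 nt form made up 42.9% to 56.7% of the 2 main 5p forms with Alternaria, 40.6% to 55.9% with mock treatment and 43.3% to 63.4% without treatment.

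**Figure D4:**
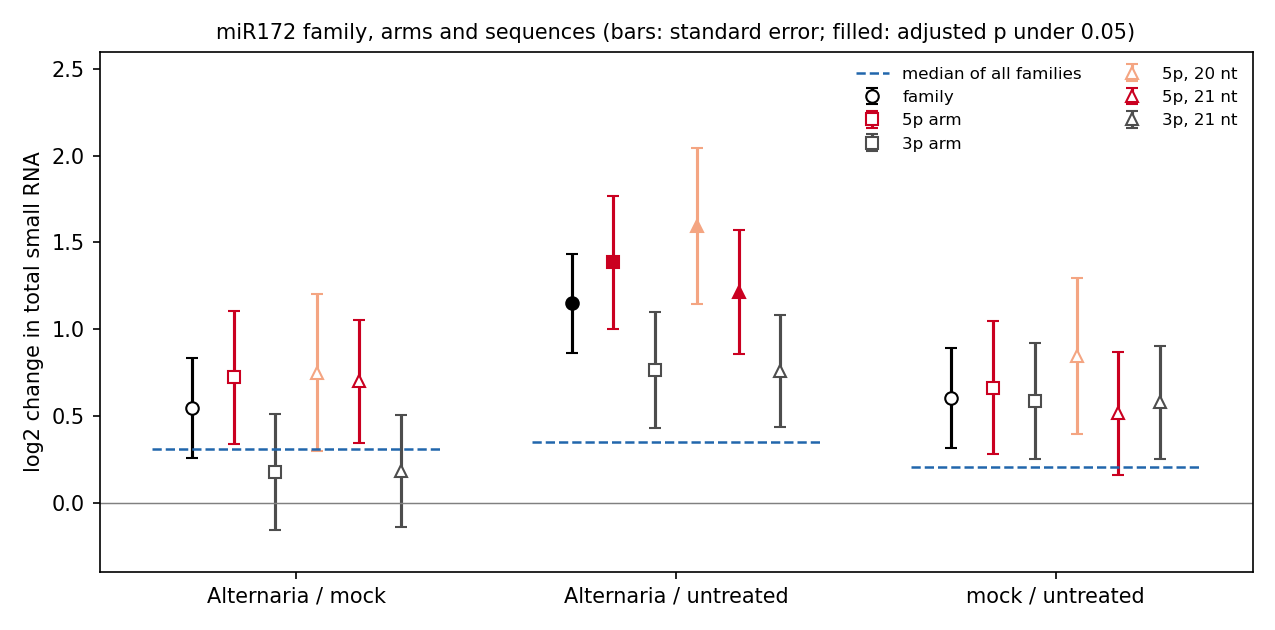
Log2 changes of the miR172 family (circles), its arms (squares) and its 3 main sequences (triangles) in total small RNA, with standard errors, for Alternaria over mock, Alternaria over untreated and mock over untreated; filled symbols passed an adjusted p of 0.05, and dashed lines show the median of all families. The family, the 5p arm and both 5p forms passed for Alternaria over untreated, and no symbol is filled in the other comparisons.

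In AGO1-bound small RNA the 3p guide was the only member listed. It had 127, 20 and 81 reads in Alternaria libraries, 107, 90 and 73 in mock libraries and 74, 124 and 75 in untreated libraries, and the other 6 sequences were listed at 0 in all 9 libraries. These numbers correspond to 6.38, 1.86 and 5.88 CPM with Alternaria, 6.30, 4.51 and 5.17 CPM with mock treatment and 5.11, 6.27 and 4.70 CPM without treatment. Alternaria replicate 2 stood apart, with 20 reads in its first run and none listed in its second, and the other 8 libraries overlapped across treatments.

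No treatment difference in AGO1-bound miR172 passed the test. The change was -0.26 ± 0.42 for Alternaria over mock (limma, adjusted p = 0.860), -0.27 ± 0.42 for Alternaria over untreated (adjusted p = 0.728) and -0.01 ± 0.42 for mock over untreated (adjusted p = 0.994). For Alternaria over mock 5.06% of 79 families were called higher and 0 lower, with 13 at an unadjusted p under 0.05. For Alternaria over untreated 7.59% were higher and 1.27% lower, and for mock over untreated limma and limma-voom called 0 in either direction, with 5 families at an unadjusted p under 0.05. Without Alternaria replicate 2 the values were 0.13 and 0.17 for the 2 Alternaria comparisons, so their sign rested on that library. The listed AGO1-bound reads of the family were all 3p guide, while its total reads held both strands. An interaction term tested, for the family, whether Alternaria moved AGO1-bound miR172 otherwise than total miR172. It was -0.74 ± 0.53 against mock (limma, adjusted p = 0.759; 0 of 95 families called lower, 0 by limma-voom, 7 families at an unadjusted p under 0.05). Against untreated leaves it was -1.48 ± 0.53 with the median family at -0.52 (adjusted p = 0.0760; 8.42% called lower), and -0.75 without the second Alternaria AGO1 library (adjusted p = 0.268). The family interaction against untreated leaves passed with a pseudocount of 10 CPM (-1.17, adjusted p = 0.0296) and per genome-matched reads (-3.16, adjusted p = 0.000116). Per genome-matched reads the median family stood at -1.60 and 53 of 95 families were called lower. For the guide alone the interaction was -0.38 ± 0.57 against mock (limma, adjusted p = 0.812). Against untreated leaves the guide gave -1.09 ± 0.57 with the median sequence at -0.69 (limma, adjusted p = 0.225), and passed in 1 of 13 other settings.

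The guide was far scarcer among AGO1-bound than among total miRNA reads. On a scale common to all 18 libraries it had 9.69, 2.21 and 7.89 CPM in AGO1 libraries against 806, 612 and 750 CPM in total libraries after Alternaria. After mock treatment it had 9.26, 6.37 and 8.73 CPM in AGO1 libraries against 543, 732 and 1026 CPM in total libraries, and without treatment 9.20, 10.6 and 6.43 CPM in AGO1 libraries against 348, 458 and 689 CPM in total libraries. Every AGO1 library lay below every total library. The guide stood at -6.25 ± 0.23 (limma, log2 AGO1 over total, mean of 3 treatments, adjusted p = 7.67e-13 over 379 sequences, of which 47.8% were called lower). By treatment its values were -6.74 ± 0.41 after Alternaria, -6.36 ± 0.41 after mock treatment and -5.65 ± 0.41 without treatment. Scaling moved the mean to -3.50 per genome-matched reads and to -7.31 with library totals alone. Per genome-matched reads the values were -4.66 after Alternaria, -3.90 after mock treatment and -1.93 without treatment.

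For the passenger strand the listing limit allows only bounds. If each 5p form had the 28 reads per library that a listing at 0 allows, the 20 nt form was at least 250-fold lower in AGO1-bound than in total small RNA over all treatments on the scale common to 18 libraries, and at least 359-fold, 254-fold and 143-fold lower after Alternaria, after mock treatment and without treatment. The 21 nt form was at least 253-fold lower over all treatments on that scale. Per genome-matched reads, a scale added after seeing the data, the bounds for the 20 nt form were smaller, at least 55.2-fold over all treatments, 92.2-fold after Alternaria, 55.6-fold after mock treatment and 11.8-fold without treatment. The 21 nt form was at least 51.7-fold lower over all treatments per genome-matched reads. Among 109 arm sums listed in total libraries, 19 were at 0 in all 9 AGO1 libraries, and the miR172 5p arm, with 33498 reads in total libraries, had the second most total reads of them.

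Accordingly the 5p share of miR172 reads was 0% in all 9 AGO1 libraries and 65.3 ± 10.6% in the 9 total libraries, and the share of the most read 3p sequence was 100% in AGO1 and 34.6 ± 10.5% in total libraries (SD, n = 9; exact two-sided permutation tests, p = 4.11e-05 each, the smallest they can give, adjusted p = 4.11e-05). The 3p sequence was chosen for having the most reads over all 18 libraries, AGO1 libraries included. Its share and the 5p share nearly add up to the whole family, so the tests are not separate results. The listing limit weakens both shares, since 28 reads of each main 5p form would be 30.6% to 73.7% of miR172 reads in an AGO1 library. With every zero set to the limit the difference in 5p share was -20.5 percentage points (exact permutation test, adjusted p = 0.000987), and that in the share of the most read sequence was -0.0809 points (exact permutation test, adjusted p = 0.985). That setting also adds reads to the unlisted 3p forms, so it does not give the smallest 5p difference that the limit allows. Its 5p reads in AGO1 libraries are filled in rather than measured, so the test cannot decide whether the difference outlasts the listing limit.

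For the whole family the log2 change, AGO1 over total, was -7.83 ± 0.22 on average (limma, adjusted p = 7.18e-15, with 44.2% of 95 families called lower), and -8.58, -7.83 and -7.09 after Alternaria, after mock treatment and without treatment, where 37.9%, 35.8% and 34.7% of families were called lower. These family values depend on the unlisted 5p reads, and with zeros at the limit the mean was -5.26. Per genome-matched reads the mean was -5.06, and -6.49, -5.36 and -3.33 after Alternaria, after mock treatment and without treatment, with the median family at 1.31 for the mean. The authors' deposited tables give -7.99, -7.16 and -6.80 for the same 3 treatments.

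The first base was compared across all tested sequences, since A and G begin the tested miR172 forms. Reads that begin with U made up 99.8% of miRNA reads in the median AGO1 library and 78.0% in the median total library, and reads that begin with A 0.0407% and 16.6%. Of 46 tested sequences that begin with A, 37 were called lower in AGO1 libraries and 2 higher, with a median log2 value of -2.98. Of 62 that begin with G, 50 were lower and 5 higher (median -3.38), of 48 that begin with C, 25 were lower and 19 higher (median -1.11), and of 223 that begin with U, 69 were lower and 117 higher (median 0.89). Among all 379 sequences 47.8% were lower and 37.7% higher. The miR172 guide was the eleventh lowest of the A sequences, and the 21 nt and 20 nt 5p forms were the fourth and the fifth lowest of the G sequences by fitted value. Both 5p forms are listed at 0 in AGO1 libraries, so the pseudocount sets the AGO1 side of their fitted values and their rank.

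**Figure D5:**
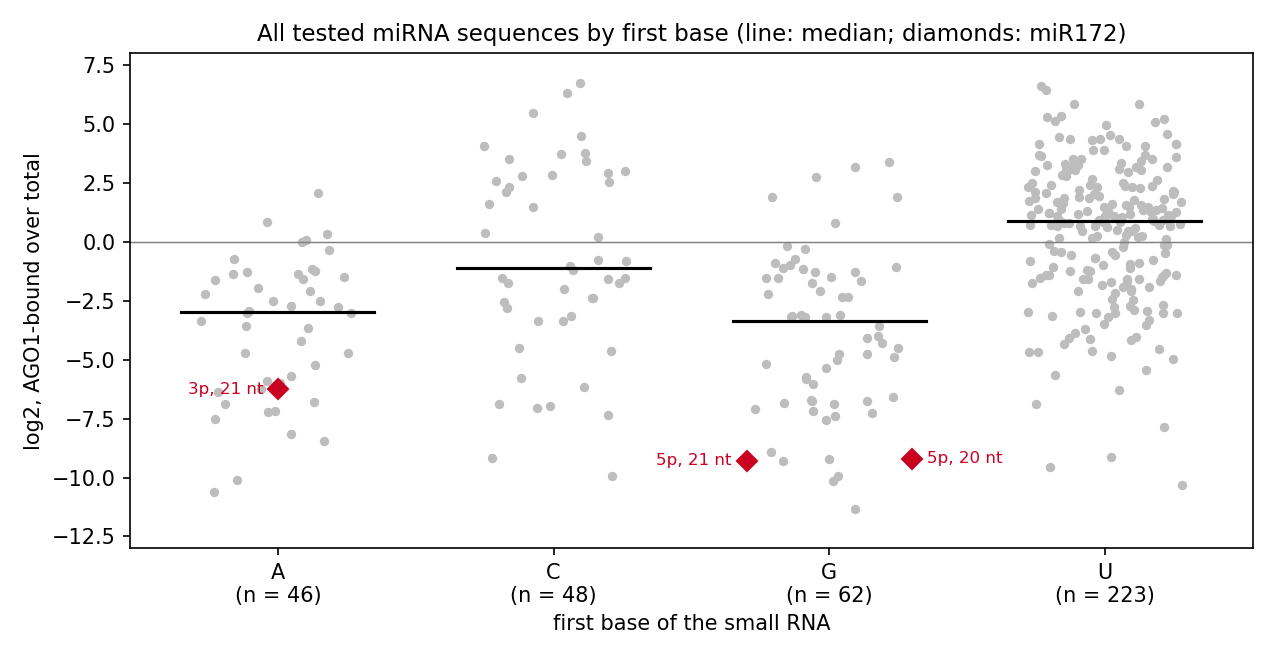
Log2 change between AGO1-bound and total small RNA (mean of 3 treatments) for every tested miRNA sequence, by first base, with the median of each base as a line and the 3 tested miR172 sequences as diamonds. The guide at -6.25 lies below the median of A sequences, and both 5p forms lie near the lower end of G sequences, where fitted values of sequences listed at 0 in AGO1 are not bounds.

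miR390, which also begins with A and triggers trans-acting small interfering RNAs with AGO7, stood at -8.16 ± 0.13, AGO1 over total (limma, adjusted p = 3.23e-18). The log2 ratio of miR172 to miR390 was -5.58 ± 0.59 in AGO1 and -5.70 ± 0.84 in total libraries (SD, n = 9 each), a difference of 0.12 (AGO1 minus total; exact two-sided permutation test, p = 0.728, adjusted over 2 ratios p = 0.728). With only sequences listed in all 18 libraries the difference was 1.68 (adjusted p = 0.000288), and with zeros at the limit it was also 1.68 (adjusted p = 4.11e-05), both past the test. miR156 and miR157, which begin with U, were higher in AGO1 libraries, by 0.79 ± 0.12 and 0.64 ± 0.14 (limma, adjusted p = 1.93e-05 and 0.000429). The log2 ratio of miR172 to the 2 families joined was -13.46 ± 0.71 in AGO1 and -4.85 ± 0.52 in total libraries, a difference of -8.61 (exact p = 4.11e-05, the smallest it can give, adjusted p = 8.23e-05). It was -6.94 with zeros at the limit and -7.04 with sequences listed in all 18 libraries.

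Within total small RNA the ratio to miR156 and miR157 put treated above untreated leaves. On the log2 scale it was -4.40, -4.21 and -4.69 with Alternaria, -4.91, -4.50 and -4.47 with mock treatment and -5.37, -5.63 and -5.46 without treatment. Neither Alternaria nor mock libraries overlapped with the untreated ones, and they overlapped with each other. The differences were 1.05 for Alternaria against untreated and 0.86 for mock against untreated leaves (exact two-sided permutation tests, p = 0.1 each, the smallest 3 against 3 libraries can give, adjusted over 3 comparisons p = 0.15) and 0.19 for Alternaria against mock (exact p = 0.4, adjusted p = 0.4). miR156 and miR157 themselves did not pass the test in total libraries, at 0.11 ± 0.29 and 0.29 ± 0.30 for Alternaria over untreated (limma, adjusted p = 0.759 and 0.462). For mock over untreated they stood at -0.35 ± 0.29 and -0.10 ± 0.30 (limma, adjusted p = 0.551 and 0.859), so the ratio also holds their change.

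Other families tied to flowering time were counted as a list: miR156, miR157, miR159, miR169, miR319, miR399 and miR824. For Alternaria over untreated in total small RNA 1 of 7 was higher, miR399 at 1.31 ± 0.24 (limma, adjusted p = 0.00136), known for phosphate signalling, and 1 was lower, miR169, at -2.56 ± 0.26 (adjusted p = 5.02e-06), which targets NF-YA factors. The list had a median of 0.11 against 0.35 for all 77 families, of which 15.6% were called higher and 9.09% lower. Against mock the same 2 families were called, miR399 at 0.87 and miR169 at -1.32, and between mock and untreated leaves miR169 alone, at -1.24. In AGO1 libraries miR399 was higher with Alternaria than without treatment, at 1.25 ± 0.30 (adjusted p = 0.00670), and no other member passed in a treatment comparison there.

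The families whose level followed that of miR172 most closely across the 9 total libraries were miR408 (Pearson r = 0.93), a family tied to copper supply, miR399 (r = 0.84) and miR827 (r = 0.77), a family tied to phosphate supply, against a median of 0.28 over 77 families. Spearman's rho was 0.93, 0.88 and 0.85 for them. These libraries differ in treatment and depth, so the values only describe likeness. Across the 9 AGO1 libraries the closest were miR779 (r = 0.88), miR838 (r = 0.83) and miR384 (r = 0.64). For miR779 the rank correlation was 0.03, so its likeness was not shared by the order of the libraries. The rank correlation was 0.70 for miR838 and 0.55 for miR384. AGO1-bound miR172 had only 20 to 127 reads a library, and Alternaria replicate 2, with the fewest, can weigh heavily on Pearson values.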

How the data were processed

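Small RNA was read from 18 libraries in 6 groups of 3. Per the submitters' processing notes, reads were processed with FastQC and cutadapt, the build was TAIR10 and comparisons used DESeq (version 1.2) and DESeq2. Per the file headers, miRProf matched reads to known miRNAs with 0 mismatches, and the authors deposited whole read numbers (a count per mature sequence and run) among family-name lines, so the table was recorded as a unit other than plain counts and limma was used throughout. In their comparison tables the authors deposited a log2 fold change and an adjusted p-value per family, which entered no test here.

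Here the 2 runs of a library were summed and scaled to CPM with TMM factors (trimming 0.3 of ratios and 0.05 of abundances) of families that passed the filter. The filter asked for 10 counts at the median depth in 3 libraries and 15 in all. The values log2(CPM + 1) were fitted with limma (version 3.58.1; R, version 4.3.3), using a mean-dependent prior variance and robust estimation. Adjustment was by Benjamini-Hochberg, over every family, arm sum or sequence tested, at 0.05, and fold changes on this scale understate low features. AGO1 and total libraries were fitted apart for treatments and together for AGO1 against total and the interaction. Shares and ratios used exact two-sided permutation tests in Python 3.11.15 with numpy 2.4.6. The fit was tested on simulated data. Named were all miR172 sequences, miR156, miR157, miR390, 1 list of flowering-time families as counts, and the 3 families most correlated with miR172 in each library type. Members and lists were chosen with earlier results of these data known. The alternatives were other scalings, filters, pseudocounts, limma-voom, single runs, zeros at the listing limit, a replicate block and leaving out each library.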

Additional observations from a re-analysis of the deposited data

How the results depend on the processing

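In total small RNA, Alternaria over untreated stayed above 0 under all 13 other settings and all 9 fits that leave out a library (0.69 to 1.25), and passed in 10 and 7 of them. It missed the threshold without the filter (0.87), with TMM factors before the filter (0.87) and in the fit of 18 libraries (0.97). The number of arms past this test was 1, against 0 without the filter, 0 with factors before the filter, 2 per genome-matched reads, 2 with zeros at the limit and 0 to 1 leaving out a library. The number of sequences past it was 2, against 0 without the filter, 0 with factors before the filter, 3 per genome-matched reads, 3 with zeros at the limit and 0 to 2 leaving out a library. Per genome-matched reads mock over untreated passed (2.20), as did the interaction against untreated leaves (-3.16, with the median family at -1.60, and -1.17 with a pseudocount of 10 CPM). The share of the most read sequence turned to -0.0809 points with zeros at the limit, and the ratio to miR390 passed with zeros at the limit (1.68) and with sequences listed in all 18 libraries (1.68). The cause of these changes was not tested.

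The correlation of deviations from group means gave no clear sign that library numbers shared between groups pair the samples. With so few libraries it cannot decide the question. The median over same-numbered pairs was -0.0976 in total libraries, 0.0168 in AGO1 libraries and -0.0248 between AGO1 and total libraries, with 2 of 9 pairs above 0.1 in each, and 3 of 9 total and 2 of 9 AGO1 libraries correlated best with their own number. The 5p share nevertheless ran in 1 order of numbers in all 3 treatments, and was higher with Alternaria than with mock in all 3 numbers (8.05 points with the replicate block, exact permutation test, adjusted p = 0.375, which 3 pairs cannot bring past the threshold). At each number it was also higher with Alternaria than without treatment. With the replicate block all 75 results kept their side of the threshold, and Alternaria over untreated was 1.15 (limma, adjusted p = 0.0196). Shares in the sequences listed in all 18 libraries could not be formed, since 1 miR172 sequence is listed in all, and shares and ratios of AGO1 libraries had no value in the second run alone, where 1 library lists none. Each AGO1 treatment comparison rests on 20 to 127 reads a library.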
